A study of Arabidopsis thaliana with 6 samples.

Results

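The pathogenesis-related (PR) genes described here encode the secreted defence proteins of the Arabidopsis thaliana leaf. The group was set by locus, with earlier results of these data known, so its counts and median are a description. Its members are PR1 (AT2G14610), PR2 (AT3G57260), PR5 (AT1G75040), the beta-1,3-glucanases BG1 (AT3G57270) and BG3 (AT3G57240), the basic chitinase PR3 (AT3G12500), the hevein-like PR4 (AT3G04720) and the chitinase CHIA (AT5G24090). These are 8 of 27655 gene loci in the deposited tables. RNA-seq was made from rosette leaves 5 and 6, fully expanded and without visible yellowing, of 2 genotypes, with 1 library each. Col is the wild type Col-0. The library labelled jmj16 comes from jmj16-1, the SAIL_535_F09 insertion allele in the same background, which is a single allele of JMJ16, the gene of an enzyme that takes methyl groups off histone H3 at lysine 4 (H3K4). All plants spent 6 days on plates before their transfer to soil, at 22 °C under long days (light for 16 h, dark for 8 h). The labels give an age of 4 weeks in one field and 5 weeks in others. The series title names a role of JMJ16 in repressing leaf senescence, and the question put to the PR genes was how their RNA differs between these leaves.

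PR proteins accumulate in the apoplast or vacuole when a leaf meets a pathogen. PR1, PR2 and PR5 are the classical markers of salicylic acid signalling, in which the coactivator NPR1 works with TGA transcription factors at their promoters. PR3 and PR4 are usually read as markers of the ethylene and jasmonate branch. Beta-1,3-glucanases and chitinases cut glucan and chitin of fungal cell walls, and PR genes are also known to be expressed in ageing leaves.

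The libraries held 10643155 (Col) and 13844253 (jmj16-labelled) reads after rounding of the estimated counts per locus. JMJ16 itself (AT1G08620) had 188 reads in Col and 168 in the jmj16-labelled library, a log2 ratio of -0.63 (95% counting interval -0.94 to -0.33) that turned to 0.37 once the trend with transcript length described at the end was taken off, so its count does not check the label and the library is called jmj16-labelled. Leaf markers were abundant in both libraries, with RBCS1A, a small subunit of Rubisco, at 148381 and 138835 reads. Of 4 root and flower markers, RHD6 and SHV2 had 1 read in Col and 0 in the jmj16-labelled library, AP3 had 1 and 2, and AG had 17 and 12. All differences below are between 1 library and 1 library, intervals cover counting error only, and whether they would recur in other plants cannot be told from these data. In bulk RNA, more cells with a transcript and more transcript per cell cannot be told apart.

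All 8 genes were read in the jmj16-labelled library and 7 of them in Col. Of these, 5 had at least 20 reads over both libraries and are called measured: PR1, PR2, PR5, PR3 and PR4. PR1, PR2 and PR5 were more than 2-fold higher in the jmj16-labelled library, PR3 and PR4 were not, and no member was lower. The rule for a call was a difference of at least 2-fold together with a 95% counting interval that excluded 1. Over all 17151 measured genes this rule called 7.22% higher and 10.6% lower. The median log2 ratio of the 5 measured members was 1.68, against 0.02 over all measured genes.

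**Figure D1:**
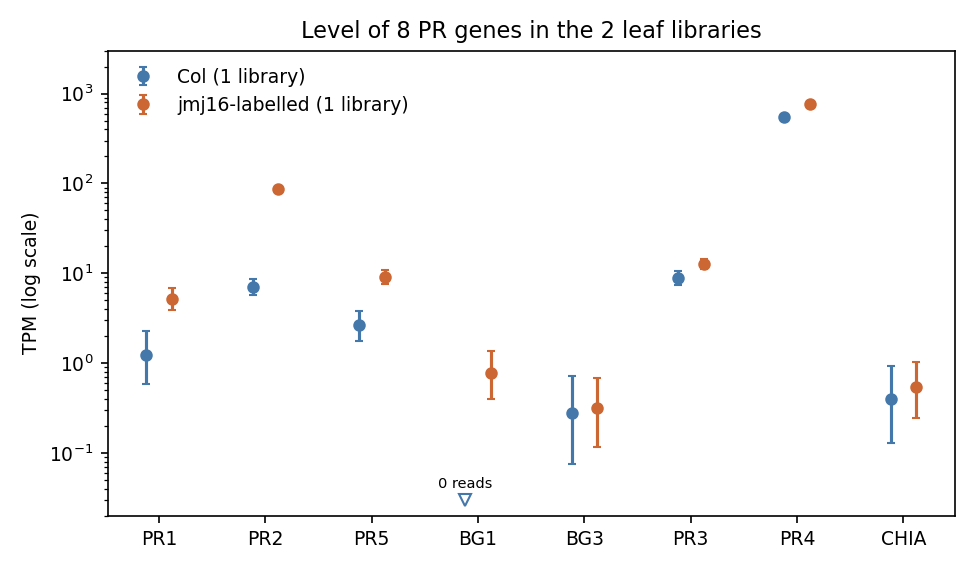
Level of each PR gene in TPM (relative abundance per transcript length, log axis) in Col (blue) and in the jmj16-labelled library (orange), 1 library each, with bars for the 95% Poisson interval of the reads. PR4 stands at 553 and 766 TPM, far above the others, PR2 moves from 7.06 to 86.7 TPM, and BG1 had 0 reads in Col (open triangle, placed at the bottom of the axis).

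PR2, listed in RefSeq as BGL2, is the beta-1,3-glucanase of the salicylic acid set and had the largest difference among the measured members. It had 88 reads in Col (70.6 to 108, an exact 95% Poisson interval, as for all reads below), against 1431 reads in the jmj16-labelled library (1358 to 1507). After scaling this was an 11.7-fold difference (95% counting interval 9.45 to 14.7) and a log2 ratio of 3.54. Counted from the top, that ratio took rank 37 among all measured genes. In level, PR2 went from 7.06 TPM, rank 9509 among all loci of Col, to 86.7 TPM, rank 1615 in the jmj16-labelled library. Transcript model AT3G57260.1 took all reads in Col and 98.5% of them in the jmj16-labelled library, where AT3G57260.2, which is 1477 nt long against 1249 nt, was given 21.5 reads.

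PR1 and PR5 were higher too, from lower levels. PR1, a small secreted protein of the CAP family and the most used marker of systemic acquired resistance, had 10 reads in Col (4.80 to 18.4), against 56 reads in the jmj16-labelled library (42.3 to 72.7). Its level was 1.23 and 5.21 TPM, and its fold was 3.88 with a wide interval of 2.04 to 8.88. The Poisson intervals of its reads do not overlap between the libraries. In level PR1 ranked 15559 in Col and 10836 in the jmj16-labelled library among all loci. PR5, a thaumatin-like protein, had 28 reads (18.6 to 40.5) in Col and 126 (105 to 150) in the jmj16-labelled library. This corresponds to 2.65 and 9.05 TPM and a 3.20-fold higher level (2.14 to 5.08). Together PR1, PR2 and PR5 summed to 10.9 TPM in Col and 101 TPM in the jmj16-labelled library, and PR2 made up most of the second sum.

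PR3 and PR4 differed little. PR4, whose product carries a chitin-binding hevein domain, was by far the most abundant of the 8 in both libraries. It had 6097 reads (5945 to 6252) in Col and 11162 (10956 to 11371) in the jmj16-labelled library, or 553 and 766 TPM. Its log2 ratio of 0.40 (0.36 to 0.45) excludes 0 by counting alone but is a 1.32-fold difference, at percentile 73.2 of the ratios of all measured genes. PR3, listed as HCHIB, had 124 reads (103 to 148) in Col and 233 (204 to 265) in the jmj16-labelled library. Its level was 8.85 and 12.6 TPM and its log2 ratio 0.44 (0.12 to 0.76), close to that of PR4.

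**Figure D2:**
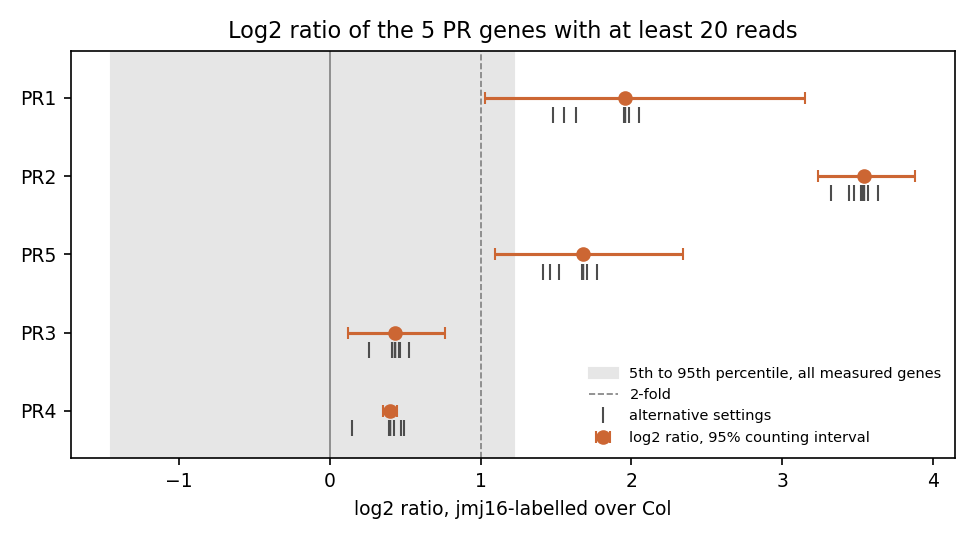
Log2 ratios (jmj16-labelled over Col) of the 5 measured PR genes (orange, with 95% counting intervals), with the values under the alternative settings as ticks (12, or 11 for PR1) and the 5th to 95th percentile of all measured genes (-1.45 to 1.22) in grey. The points of PR1, PR2 and PR5 lie beyond that range and beyond 2-fold (dashed), while PR3 and PR4 lie within it. The intervals of PR1 and PR5 begin inside the range, at 1.03 and 1.10. Settings that alter only the call repeat the main value.

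The remaining members were barely read. BG1, a glucanase gene next to PR2, had 0 reads in Col (0 to 3.69), against 12 in the jmj16-labelled library (6.20 to 21.0). With Col set by convention to a floor of 3 counts, the 12 reads are 2.88-fold higher. The lower limit of the counting interval, which also takes the error of the 12 reads, was 2.004-fold. With 12 reads in all it was under the minimum and was not called. With no minimum BG1 would pass the rule, as would 6.46% of the 21860 genes with any read (9.89% would be lower). BG3 had 4 and 6 reads (0.28 and 0.32 TPM) and the acidic chitinase gene CHIA 5 and 9 (0.39 and 0.54 TPM). At this depth a difference of BG3 or CHIA was not detectable: their counting intervals ran from 0.26-fold to 5.21-fold and from 0.39-fold to 4.93-fold.

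By level per length, the order in Col was PR4, PR3, PR2, PR5, PR1, CHIA and BG3, with BG1 at 0. The Poisson intervals of neighbours in this order overlapped for PR3 and PR2 (7.36 to 10.6 and 5.66 to 8.70 TPM), PR5 and PR1 (1.76 to 3.84 and 0.59 to 2.26 TPM), PR1 and CHIA, and CHIA and BG3. In the jmj16-labelled library the order was PR4, PR2, PR3, PR5, PR1, BG1, CHIA and BG3. There PR2 (82.2 to 91.3 TPM) stood clear of PR3 (11.0 to 14.3 TPM), and only BG1, CHIA and BG3 overlapped with their neighbours. The 8 genes summed to 573 TPM in Col and 881 TPM in the jmj16-labelled library. PR4 took 96.4% of the first sum and 86.9% of the second, and PR2 took 1.23% and 9.84%. Without PR4 the other 7 genes summed to 20.5 and 115 TPM.

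The members can also be compared with each other inside each library, which needs no scaling between libraries. Per 1000 TPM of PR4 there were 12.8 TPM of PR2 in Col and 113 in the jmj16-labelled library, whereas PR3 stood at 16.0 and 16.4. The fold of PR2 was 8.88 times that of PR4 (95% counting interval of the ratio 7.14 to 11.2) and 3.61 times that of PR5 (2.18 to 5.83). The fold of PR1 was 1.24 times that of PR5, with an interval from 0.54 to 3.07, so the reads do not separate PR1 from PR5. The fold of PR3 was 1.03 times that of PR4 (0.82 to 1.29). Of the 10 pairs among the 5 measured members, the interval excluded 1 in 8, namely every pair except these last 2.

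**Figure D3:**
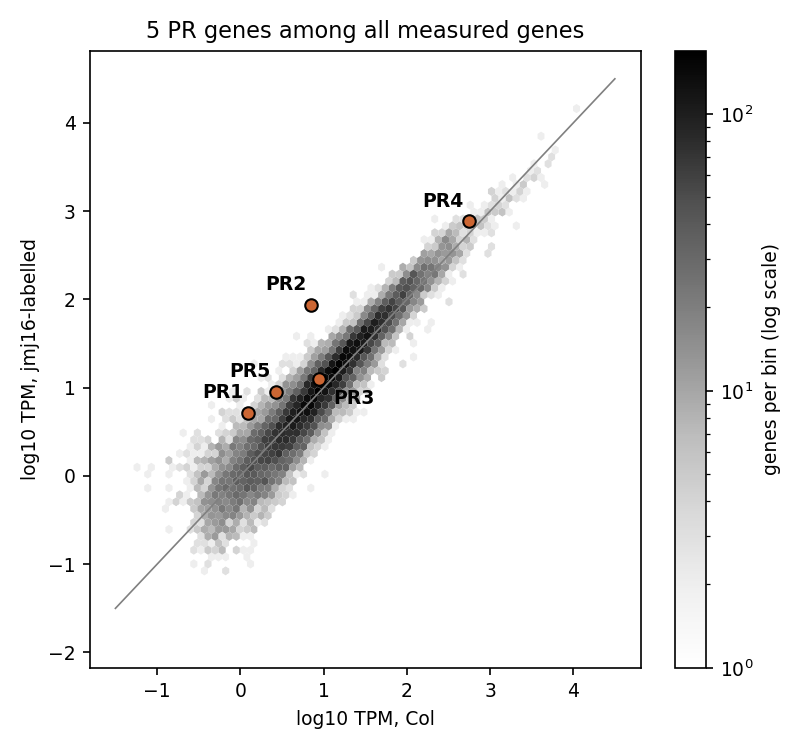
TPM of all measured genes with a value above 0 in both libraries (grey bins, log10 scales, Col on the x axis and jmj16-labelled on the y axis; the line marks equal levels), with the 5 measured PR genes in orange. PR2 stands well above the cloud, PR1 and PR5 at its upper edge at low level, PR3 inside it and PR4 at the abundant end.

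PR2, BG1 and BG3 lie side by side in the gene order of the reference, with 0 protein-coding genes between PR2 and BG1 and 1 between BG3 and PR2. The gene between BG3 and PR2, AT3G57250, had 0 reads in both libraries, and AT3G57280 on the far side of BG1 had 280 and 650 reads, a log2 ratio of 0.74 (0.54 to 0.95). Near-identical copies can share reads under Salmon, which leaves fractions in the counts. The locus sums of all 8 PR genes were whole to within 0.01 reads in both libraries, as were 69.2% of measured loci. PR1 neighbours PRB1, its close relative, which had 0 reads in both libraries. Next after PRB1 comes LURP1, a gene known for its induction by an oomycete pathogen, with 1885 and 1458 reads and a log2 ratio of -0.84 (-0.94 to -0.74). On either side of PR5 the thaumatin-like genes TLP-3 and AT1G75050 had 0 reads in both. Counting the 2 protein-coding genes on each side of every member, 25 neighbours were no member themselves, 14 of them were measured, 0 were higher and 1 was lower. That gene was AT3G04700 beside PR4, with 22 and 10 reads. Over all measured genes 7.22% were higher and 10.6% lower, and the counts of neighbours are near those shares. This set of neighbours was chosen after the members' values were known.

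The wider gene families did not all show what PR1, PR2 and PR5 showed. Of 13 measured other beta-1,3-glucanase genes 0 were higher and 0 lower, with a median log2 ratio of 0.22, while 1 was higher with total-count scaling and 2 from the most abundant transcript alone. Over all measured genes 7.22% were higher and 10.6% lower, so few calls would be met in a list of this size. The most read, AT4G16260, had 1194 and 3121 reads and a log2 ratio of 0.91 (0.82 to 1.01), or 1.01 with total-count scaling, and BG_PPAP, an enzyme of plasmodesmata, had 589 and 757 and a ratio of -0.11 (-0.27 to 0.05), or 0.10 from its most abundant transcript. Besides PR5, 9 thaumatin-like genes were measured, of which 2 were higher and 0 lower, and their median log2 ratio was 0.22. AT5G40020 had 7 and 44 reads (4.28-fold higher, 2.03 to 11.9) and AT4G36010 had 130 and 467 (2.58-fold, 2.13 to 3.17). Among PR1-like genes of the CAP family 18 of 21 were too little read to be measured, and none of the other 3 was higher. AT5G66590 had 413 and 188 reads (log2 ratio -1.60, -1.86 to -1.35) and AT4G25780 had 62 and 36 (-1.25, -1.89 to -0.64), both lower, opposite in sign to PR1. AT4G25780 no longer passed with log2(TPM + 1) (-0.91) or with an interval wholly beyond 2-fold.

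Other chitinase genes were split. Among 11 measured ones, 5 were higher and 2 lower, and the median log2 ratio was 0.62. Over all measured genes 7.22% were higher and 10.6% lower. Of the higher ones, CTL2, AT2G43620 and ChiC met the minimum of 20 reads only through the jmj16-labelled library. The lower ones, AT2G43590 and AT2G43610, met it only through Col, so being measured was tied to the difference. AT2G43620, ChiC and AT2G43610 were picked after their values were seen. CTL2, a chitinase-like gene of secondary cell walls, had 2 and 107 reads, a ratio of 31.0-fold with a counting interval of 10.4 to 323. With so few reads in Col its log2 ratio of 4.95 went to 3.53 with an added count of 5, 2.81 with log2(TPM + 1) and 6.40 from the most abundant transcript alone, and stayed above 2-fold in each. The putative chitinase gene CHI (AT2G43570) had 21 and 194 reads, a difference of 6.52-fold (4.24 to 11.0). AT2G43590, a gene of the same numbered run of loci as CHI, had 30 and 8 reads and a log2 ratio of -2.31 (-3.71 to -1.22). With a minimum of 100 reads 5 of these chitinase genes were measured, 3 of them higher and 0 lower. With an interval wholly beyond 2-fold 2 were higher and 1 lower. All 3 measured xylem markers were higher in the same library: XCP1 had 5 and 26 reads, XCP2 21 and 91, and IRX1, a cellulose synthase of secondary walls, 2 and 18. XCP1 and IRX1 met the minimum of 20 reads only through the jmj16-labelled library, where they were high, so their being measured was tied to that difference. With log2(TPM + 1) 1 of the 3 markers was higher, at a median log2 ratio of 0.85 in place of 1.80. With an interval wholly beyond 2-fold 0 were. The part of xylem content in the value of CTL2 was not tested.

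**Figure D4:**
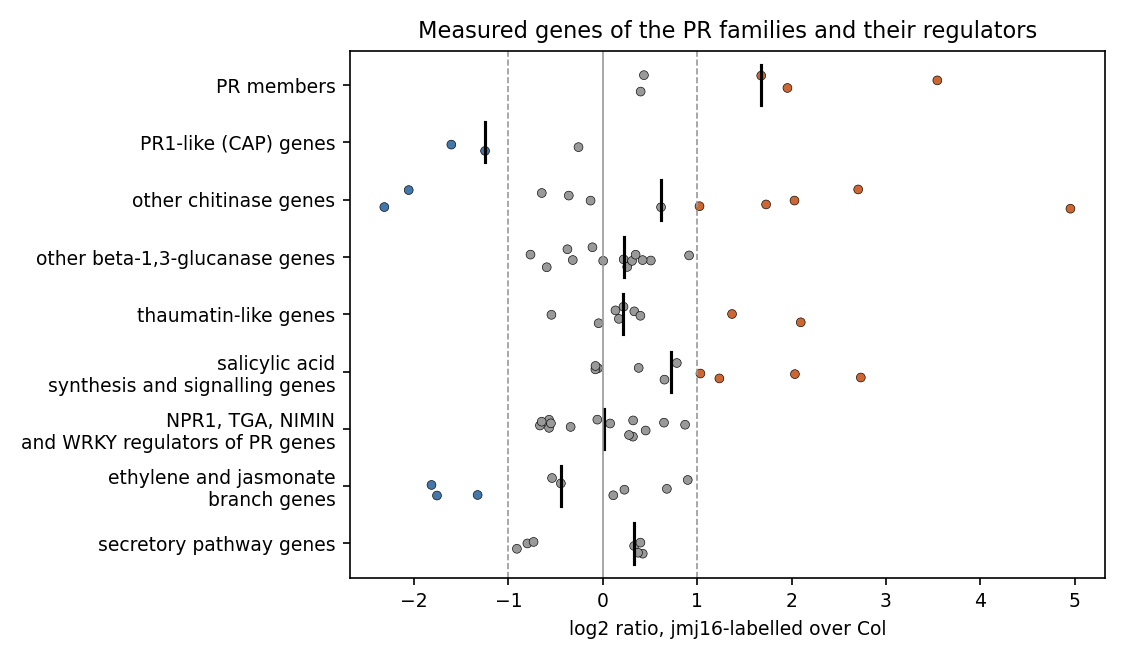
Log2 ratios (jmj16-labelled over Col) of every measured gene of the PR set, of its wider families and of its regulators (x axis; 1 point per gene, orange higher, blue lower, grey neither; black bars mark medians and dashed lines 2-fold). Regulators of the NPR1 group stay between the dashed lines, while 4 genes of salicylic acid synthesis and signalling lie to the right of them.

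Upstream of the PR genes, 4 genes of the salicylic acid list were higher, among them 2 hydroxylases of the hormone, and genes of the NPR1 group were not. Among 10 measured synthesis and signalling genes, 4 were higher and 0 lower, and the median log2 ratio was 0.72. The number higher was 3 with log2(TPM + 1), an added count of 5 or a minimum of 100 reads. It was 2 with an interval wholly beyond 2-fold and 5 with length correction. AT4G10500 (DLO1), a salicylic acid hydroxylase, had 4 and 41 reads (6.65-fold, 2.68 to 28.4), the transcription factor gene CBP60G 315 and 1793 (4.10-fold, 3.64 to 4.64), and DMR6, another salicylic acid hydroxylase, 98 and 321 (2.35-fold, 1.88 to 2.99). Hydroxylases of this kind turn salicylic acid over. The remaining higher gene, EDS5, had 37 and 106 reads (2.05-fold, 1.41 to 3.09). The synthesis genes EDS16 (ICS1), with 125 and 226 reads (log2 ratio 0.38, 0.06 to 0.71), and PBS3, with 32 and 43 (-0.05, -0.74 to 0.66), were not called. Nor were EDS1 and SAG101 (both -0.08), PAD4 (0.65, 0.48 to 0.83) and SARD1 (0.78, 0.09 to 1.55). EDS5 and these uncalled genes were picked after their values were seen. Of 14 measured genes for NPR1, its relatives, TGA factors, NIMIN proteins and WRKY factors 0 were higher and 0 lower, with a median of 0.01. From the most abundant transcript alone 3 of them were lower and the median was -0.15, and 1 was lower after length correction. The shares over all measured genes were 7.22% higher and 10.6% lower, so few calls would be met among 14 genes. TGA3 had 929 and 1562 reads (log2 ratio 0.28, 0.16 to 0.40) and TGA7 447 and 972 (0.65, 0.49 to 0.81). NPR1 had 390 and 571 reads, a log2 ratio of 0.08 (-0.11 to 0.27), and NIMIN-2, a gene that like PR1 responds to salicylic acid, 3 and 16 reads, too few to be measured; both were picked after their values were seen.

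In the ethylene and jasmonate branch, 9 genes were measured, 0 of them higher and 3 lower, and their median log2 ratio was -0.44. After length correction 1 was higher. The 6 genes not called are regulators, named after their values were seen, and were split in sign. Log2 ratios were 0.90 for ERF-1, 0.68 for MYC2, 0.23 for ORA59 and 0.11 for ERF2. Those of EIN3 and EIL1 were -0.44 and -0.54. The 3 lower ones are defensin genes, outputs of the branch and not regulators: PDF1.2 had 986 and 545 reads (-1.33, -1.48 to -1.17), PDF1.2b 219 and 86 (-1.82, -2.20 to -1.45) and PDF1.2c 437 and 179 (-1.76, -2.02 to -1.51). They resemble each other closely and may share reads, so their single values are uncertain. PR3 and PR4, often grouped with PDF1.2, had log2 ratios of the other sign. Genes for the secretory pathway, through which PR proteins leave the cell, had 0 higher and 0 lower of 7 measured, and a median of 0.33. Their log2 ratios were split in sign, from -0.91 to 0.42 with 4 above 0, and 3 were lower with a fold of 1.5. At the all-gene shares of 7.22% higher and 10.6% lower, few calls would be met among 7 genes. SHD, an endoplasmic reticulum chaperone, had 766 and 565 reads (-0.91, -1.07 to -0.75) and CRT3, a calreticulin, 611 and 1067 (0.33, 0.19 to 0.48).

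Other markers moved between the same libraries, and their part in the PR values was not tested. Over all measured genes 7.22% were higher and 10.6% lower. Of 5 rapid touch and wound response genes 4 were higher and 0 lower, with a median log2 ratio of 1.43: CBF1 had 16 and 155 reads, RHL41 (ZAT12) 23 and 193, and RRTF1 5 and 20. After length correction 2 of the 5 were higher. RRTF1 met the minimum of 20 reads only through the jmj16-labelled library. The summed level of the 5 was 83.2 TPM in Col and 146 TPM in the jmj16-labelled library. Of these sums TCH3, which was not called (log2 ratio 0.23, 0.10 to 0.36), took 63.2 and 78.1 TPM. TCH3 was picked after its value was seen. The summed level of the xylem markers was 1.92 and 6.73 TPM. Both guard cell markers were lower, with KAT1 at 122 and 80 reads and FMA at 159 and 110, but 0 of them with total-count scaling or length correction. Also lower was 1 of 3 leaf markers, the carbonic anhydrase gene CA1, at 15711 and 5500 reads, while LHCA1 had 55132 and 56505 reads and a log2 ratio of -0.44. Longer transcripts had lower ratios in this pair of libraries. For transcripts of 902 to 1373 nt, the lengths of the measured members, the trend over all genes lay between 0.18 and 0.33 on the log2 scale. With that trend taken off, the log2 ratios were 1.63 for PR1, 3.32 for PR2, 1.41 for PR5, 0.26 for PR3 and 0.14 for PR4. PR1, PR2 and PR5 still passed the rule, and 6.21% of all measured genes were higher and 6.64% lower after the same correction.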

How the data were processed

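Leaf RNA-seq of 1 library per genotype was analysed. The other 4 samples, chromatin immunoprecipitations, were not analysed here. The authors deposited estimated counts of reads per transcript model, not normalized, and TPM, scaled by transcript length and library total, in Salmon's output layout, per the file headers. Salmon, TopHat2, Bowtie2, SAMtools, deepTools and the build TAIR10 are named, without roles, per the submitters' processing notes. For versions, annotation release, strand setting and trimming the entry is: not given in the sources used here. Overlapping genes may therefore hold each other's reads.

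Both units were summed over the 48359 transcript models to 27655 loci, and summed counts were rounded. RefSeq symbols (assembly TAIR10.1) matched 27445 loci; JMJ16 is listed there as PKDM7D. Since the build names differ, no coordinates are printed, only gene order. No sequence was used, so the intended promoter motif search was not run.

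Library sizes were scaled by TMM factors of 0.969 (Col) and 1.03 (jmj16-labelled) from edgeR 4.0.16 (R 4.3.3), used for scaling only. The log2 ratio was taken after adding 0.5 to each count. Intervals are exact at 95% (Clopper-Pearson for a ratio, Poisson for a count, conditional odds ratio for a ratio of folds; scipy 1.17.1). Reads are not independent molecules, so they cover counting error only, and no p-value is given. Genes with at least 20 reads over both libraries were measured. Some genes with few reads in Col met this minimum only through the jmj16-labelled library, such as XCP1, IRX1, RRTF1, CTL2, AT4G10500 and AT5G40020. Others, such as AT2G43590, met it only through Col. The length trend was a lowess fit (span 0.3, statsmodels 0.14.6) on log2 transcript length. The interval and call code was tested on simulated counts.

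The 8 members and the 13 gene lists were chosen with earlier results of these data known. All members are named. Of each list, up to 3 called genes with the largest ratio are named, or the 2 most read where fewer than 2 were called, plus genes said to be picked afterwards, neighbours and remaining marker genes.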

Additional observations from a re-analysis of the deposited data

How the results depend on the processing

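With 12 alternative settings, PR1, PR2, PR5, PR3 and PR4 kept the sign of their log2 ratio in all of them, but not every setting could change it. Those on the minimum of reads, the fold and the interval alter only the call. The most abundant transcript gives the same counts for PR1, PR5, PR3 and PR4, which have 1 transcript model each. PR1 ran from 1.48 to 2.05 over the 11 that gave a value (with a minimum of 100 reads it is not measured), PR2 from 3.32 to 3.64, PR5 from 1.41 to 1.77, PR3 from 0.26 to 0.53 and PR4 from 0.14 to 0.49. Of the members, 3 were higher and 0 lower. With a fold of 4 only 1, PR2, was higher, since PR1 (1.96) and PR5 (1.68) were then under the limit by construction. Among members with few reads, the sign of BG3 turned with an added count of 5 (-0.18) and with length correction (-0.11), and BG1 passed without a minimum of reads (fitted 4.17, no bound). Over all measured genes 1239 were higher and 1825 lower. A minimum of 100 reads gave 747 and 1199, a fold of 1.5 gave 2821 and 3355, a fold of 4 gave 255 and 292, and an interval wholly beyond 2-fold gave 487 and 807. With log2(TPM + 1) 946 were higher and 749 lower, so that 55.8% of calls were higher against 40.4%, and length correction gave 1065 and 1138 (48.3%). The same settings were applied to the gene lists, their named genes and JMJ16 after seeing the data. Signs turned for the median of the NPR1 group (-0.15) and for BG_PPAP (0.10), both from the most abundant transcript alone, and for JMJ16 with length correction (0.37). The causes were not tested beyond what each setting's construction gives. No paired analysis was possible because there is 1 library per genotype.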
